A study of Mus musculus with 18 samples.

Results

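Among 18 intestinal adenomas profiled by bulk RNA sequencing, 15 were ranked by how much absorptive enterocyte RNA they held, and the 5 of highest rank were compared with the 5 of lowest rank. The score of a tumour was the mean of log2(RPKM + 1) of Sis, Fabp2, Apoa1 and Apoa4, where RPKM is the read count scaled by gene length and library size. The tumours were therefore chosen by their measured RNA and not by a treatment, and the study itself compared Macrod2 genotypes. The 10 compared tumours are called high-score and low-score, the other 5 of the 15 are called middle-score, and 3 tumours (het 4, wt 1 and wt 2) lie outside the ranking.

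Every tumour came from a male C57BL/6 mouse that carries the Min allele of Apc on a single chromosome copy (ApcMin/+), so no group lacks the Apc mutation and no normal mucosa was sequenced. The Macrod2 product is a macrodomain hydrolase that acts on ADP-ribosylated proteins. The mice were Macrod2-/- (hom), Macrod2-/+ (het) or Macrod2+/+ (wt), with 6 numbered mice of each genotype and 1 tumour from each. The labels give the loss of Macrod2 as a germline genotype, with no age of the mice and no tumour size or grade. The high-score tumours are hom 6, hom 3, het 3, hom 1 and hom 4, and the low-score tumours are hom 2, het 6, wt 5, wt 6 and wt 4. Wherever 5 values are listed for a class below, they follow this order, which runs from the highest to the lowest score.

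Enterocytes are the absorptive cells of the intestinal epithelium. They arise from stem cells at the crypt base, stop dividing as they leave the crypt, and carry a brush border of microvilli with digestive enzymes and transporters on its surface. They take up fatty acids, rebuild them into triglycerides and export them as lipoproteins. Loss of Apc holds the Wnt pathway active and keeps cells in a crypt-like, dividing state, and adenomas can still hold some differentiated epithelium. Of the score genes, Sis encodes sucrase-isomaltase, a disaccharidase of the brush border. Fabp2 encodes the intestinal fatty acid binding protein, and Apoa1 and Apoa4 encode apolipoproteins of the particles that carry fat and cholesterol.

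The promoters of the score genes are shown because the ranking rests on these 4 transcripts. They come from RefSeq on GRCm38.p6 (mm10), and each window holds 250 bases before and 50 bases after the annotated start, written 5′ to 3′ on the strand of the gene. The windows are chr3:72967814-72968113 on the minus strand for Sis, chr3:122894822-122895121 on the plus strand for Fabp2, chr9:46228380-46228679 on the plus strand for Apoa1 and chr9:46240594-46240893 on the plus strand for Apoa4. Capitals mark exact matches, on either strand, to 4 short motifs of factors known from enterocytes. The half-site of HNF1 was searched as GTTAAT, and the core of the HNF4 site was searched as CAAAGT. The core bound by CDX2 was searched as CAATAAA, and the site of GATA factors was searched as AGATAA. These motifs do not overlap in the windows shown, and they were chosen with results of these data known.
Sis: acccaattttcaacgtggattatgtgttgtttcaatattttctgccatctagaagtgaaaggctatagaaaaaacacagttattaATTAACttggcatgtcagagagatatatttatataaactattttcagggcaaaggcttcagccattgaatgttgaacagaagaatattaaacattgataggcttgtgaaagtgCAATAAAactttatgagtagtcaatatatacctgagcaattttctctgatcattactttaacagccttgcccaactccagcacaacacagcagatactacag
Fabp2: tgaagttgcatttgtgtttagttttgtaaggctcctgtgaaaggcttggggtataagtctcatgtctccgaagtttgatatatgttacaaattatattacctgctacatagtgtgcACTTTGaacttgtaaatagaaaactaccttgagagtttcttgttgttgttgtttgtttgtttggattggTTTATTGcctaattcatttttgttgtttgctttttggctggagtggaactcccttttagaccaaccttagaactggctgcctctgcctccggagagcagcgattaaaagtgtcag
Apoa1: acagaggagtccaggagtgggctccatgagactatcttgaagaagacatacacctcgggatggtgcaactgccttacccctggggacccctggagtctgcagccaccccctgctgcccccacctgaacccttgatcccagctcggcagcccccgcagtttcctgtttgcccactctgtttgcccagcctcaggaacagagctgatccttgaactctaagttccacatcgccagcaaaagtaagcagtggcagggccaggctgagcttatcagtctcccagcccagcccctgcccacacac
Apoa4: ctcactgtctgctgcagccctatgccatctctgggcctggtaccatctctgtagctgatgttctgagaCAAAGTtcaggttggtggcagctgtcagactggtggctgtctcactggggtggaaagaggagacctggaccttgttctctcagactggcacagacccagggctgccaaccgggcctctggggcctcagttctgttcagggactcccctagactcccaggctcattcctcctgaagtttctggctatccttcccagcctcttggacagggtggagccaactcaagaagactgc
Sis held the HNF1 half-site 165 bases and the CDX2 core 52 bases before its start. Fabp2 held the HNF4 core 134 bases and the CDX2 core 65 bases before its start, and Apoa4 held the HNF4 core 182 bases before its start. The Apoa1 window held no match, and none of the 4 windows held the GATA site. Of all 32851 promoter windows of this length, 7.10% held the HNF1 half-site, 14.4% the HNF4 core, 4.60% the CDX2 core and 11.2% the GATA site. Such matches describe the letters of a window and say nothing on whether a factor binds there.

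The labels place all 15 ranked tumours in the large intestine, but regional markers went against that label in part. Hoxb13 and Hoxd13, transcription factor genes of the distal colon, stayed at or below 0.209 and 0.151 RPKM in all 15, with 0 to 4 and 0 to 8 counts. Car1, a carbonic anhydrase abundant in colon, had a median of 0.122 RPKM and exceeded 1 RPKM in 2 of 15. Fabp6, the bile acid binding protein of ileal enterocytes, ran from 22.1 to 3262 RPKM with a median of 1282, and Slc10a2, the ileal bile acid importer, ran from 2.91 to 73.3 RPKM. The 3 tumours outside the ranking, of which only het 4 is labelled small intestine, were set apart by Gata4, a factor of the proximal small intestine, at 49.1 to 52.9 RPKM against 0.0830 to 13.9 RPKM in the 15. No site other than the label is given to any tumour here.

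Library depth moved with the classes. Total gene counts were 17374633 to 20857918 in the high-score and 13529204 to 17250850 in the low-score tumours, so each high-score library was deeper than each low-score library (exact two-sided permutation test, p = 0.00794, the smallest that 5 against 5 allows, adjusted p = 0.0238 over 3 measures). The number of genes with a count averaged 16951 ± 193 in high-score and 16609 ± 250 in low-score tumours (SD, n = 5 each, exact permutation p = 0.0317, adjusted p = 0.0476). Rn45s, the ribosomal RNA precursor, took 0.277 ± 0.135% of counts in high-score and 0.454 ± 0.174% in low-score tumours (SD, n = 5 each, exact permutation p = 0.103). The middle-score tumour wt 3 stood apart at 27.0% Rn45s and entered no comparison of high with low. The part of depth in the gene differences was not tested beyond the scaling of each library.

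The score spanned a wide range. It averaged 10.40 ± 0.801 in the high-score, 8.62 ± 0.511 in the middle-score and 6.36 ± 1.72 in the low-score tumours (SD, n = 5 each), as log2 units that describe how the classes were formed. Sis read 429, 138, 211, 152 and 82.8 RPKM in the high-score tumours, against 35.2, 10.3, 3.73, 9.34 and 0.186 RPKM in the low-score tumours. Fabp2 read 3036, 3996, 3470.5, 1189 and 903 RPKM, against 589.7, 417, 205, 116 and 31.6 RPKM. Within the low-score class, hom 2 was highest for Sis and Fabp2 and wt 4 was far below the other 4.

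Apoa1 read 7415, 9362, 6803, 4341 and 3823 RPKM in the high-score tumours, against 1125, 1248, 544, 679 and 55.1 RPKM in the low-score tumours. Apoa4 read 3761, 4101, 811, 790.3 and 712 RPKM, against 112, 340.2, 86.1, 51.2 and 7.93 RPKM. In each of the 4 genes all high-score values lay above all low-score values, and hom 6 and hom 3 were apart from the rest of their class in Apoa4. The ratios of class means were 17.3 for Sis, 9.27 for Fabp2, 8.70 for Apoa1 and 17.02 for Apoa4, and they carry no test because they chose the tumours. Together the 4 transcripts took 0.673% to 2.02% of all counts in high-score and 0.0100% to 0.230% in low-score tumours. In bulk RNA, fewer enterocytes and less RNA per enterocyte cannot be told apart.

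**Figure D1:**
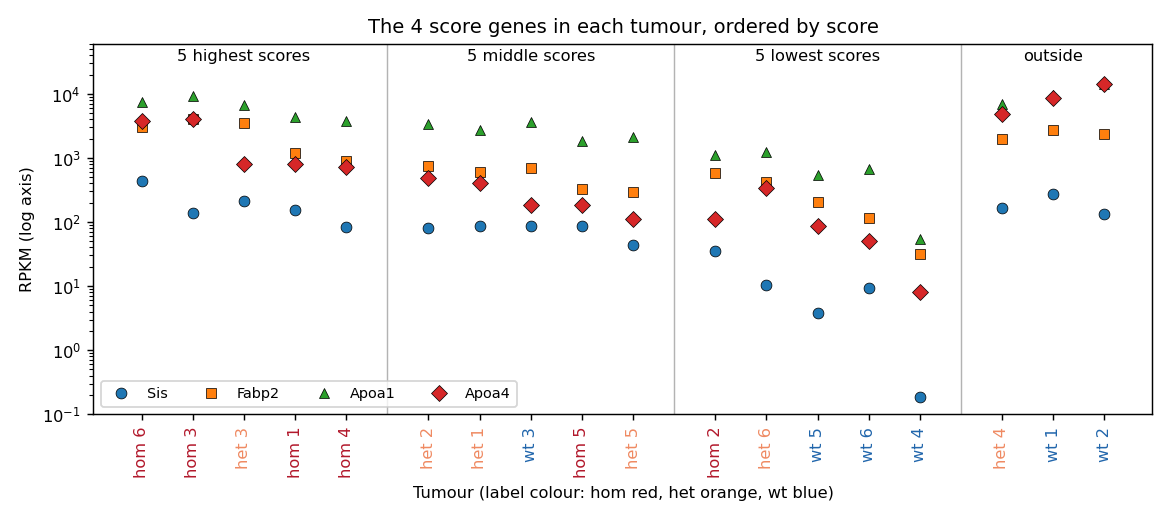
RPKM of the 4 score genes (vertical axis, log scale, 1 symbol per gene) in each tumour, ordered by score within high-score, middle-score and low-score tumours and those outside the ranking (horizontal axis, label colour by genotype). All 5 high-score tumours lie above all 5 low-score tumours in each gene, and wt 4 is lowest throughout, with Sis at 0.186 RPKM.

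The ranking was continuous rather than stepped at its limits. The lowest high-score tumour, hom 4, had a score of 9.40 and the next tumour, het 2, had 9.14. The highest low-score tumour, hom 2, had 7.84 and its neighbour het 5 had 7.89. Membership of the high-score class was the same when any of the 4 genes was left out, with a pseudocount of 0.1 and on log2 CPM. In the low-score class het 5 took the place of het 6 without Sis and of hom 2 without Apoa1. The pairwise correlations of the 4 genes over the 15 tumours were 0.853 to 0.948 on the log2 scale, values that share the same libraries and are given as a description.

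Genotypes were unevenly spread over the ranking. The high-score class held 4 hom, 1 het and 0 wt tumours, and the low-score class held 1 hom, 1 het and 3 wt tumours. The middle-score class held 1 hom, 3 het and 1 wt. None of the 3 Fisher exact tests of these counts passed the threshold of 0.05 (two-sided p = 0.206 for hom, 1 for het and 0.167 for wt, adjusted p = 0.310 for hom and for wt), and 5 tumours a side leave such a test little power. Over the 15 tumours the score averaged 9.61 ± 1.40 in hom (SD, n = 6), 8.83 ± 1.11 in het (SD, n = 5) and 6.27 ± 2.15 in wt (SD, n = 4). The differences were 3.34 for hom minus wt, 2.56 for het minus wt and 0.78 for hom minus het. They carry no test, because the score is the value that ranked the tumours and the ranking leaves out wt 1 and wt 2.

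The values depended on which wt tumours were entered. The scores of wt 1 and wt 2, 11.46 and 11.47, were above those of all 15 ranked tumours. With both included, the 17 tumours labelled large intestine gave a wt mean of 8.002 ± 3.16 (SD, n = 6), with differences of 1.61 for hom minus wt and 0.83 for het minus wt. When each of the 15 tumours was left out in turn, the differences ran from 2.435 to 4.19 for hom minus wt and from 1.66 to 3.41 for het minus wt. The lower ends came without wt 4, the tumour of lowest score, and the upper ends without wt 3, the wt tumour of highest score among the 15.

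**Figure D2:**
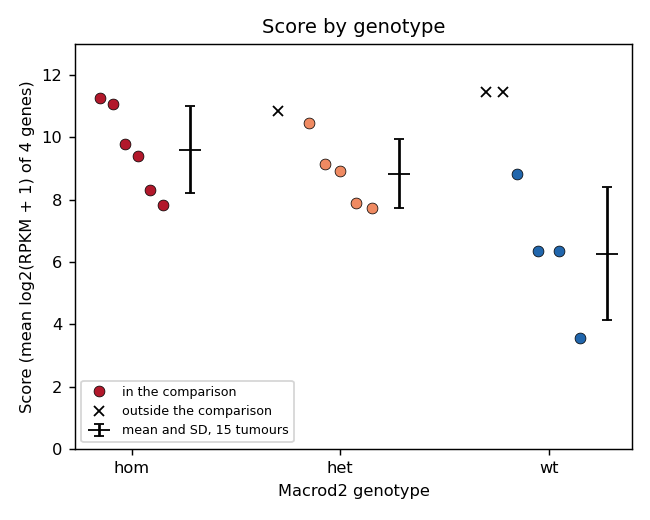
Score of each tumour (vertical axis, mean log2(RPKM + 1) of the 4 genes) by Macrod2 genotype (horizontal axis, hom, het, wt), with dots for the 15 ranked tumours, a bar for their mean, an error bar of 1 SD and crosses for the 3 tumours outside the ranking. The wt tumours reach lowest, down to 3.56 in wt 4, while the crosses of wt 1 and wt 2 stand at 11.46 and 11.47.

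Macrod2 itself was used to check the genotype labels. It averaged 0.0314 ± 0.0288 RPKM in hom (SD, n = 6, 0 to 8 counts), 0.436 ± 0.149 RPKM in het (SD, n = 5, 32 to 61 counts) and 0.681 ± 0.0916 RPKM in wt (SD, n = 4, 32 to 71 counts), which follows the labels in order. Between the classes the log2 fold change of Macrod2 was -2.58 ± 0.99 (SE, adjusted p = 0.0721 by edgeR), and -0.13 with genotype in the model. The high-score class is thus mostly Macrod2-null and the low-score class mostly wild type, so a gene difference between the classes and a genotype difference can be told apart only in part.

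Of 13899 genes tested beside the score genes, 1950 were higher (14.0% of genes tested) and 1883 were lower (13.5%) in high-score tumours, which is 27.6% in either direction (edgeR quasi-likelihood test, Benjamini-Hochberg adjusted p under 0.05). The higher side held the larger changes. At least 4-fold differences were found in 239 of the higher and 3 of the lower genes, and the median log2 fold change was 0.80 among the higher and -0.58 among the lower genes. The median over all genes was 0.00. In 1215 genes (8.74%) all 5 high-score values lay above all 5 low-score values, and in 1221 genes (8.78%) all lay below. A p here describes which other genes differ between tumours sorted by 4 transcripts, and for genes of the same cell type as the score it is no independent evidence.

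The number of calls depended on the fit. With genotype added to the model 0 genes passed by edgeR, with 2770 at an unadjusted p under 0.05 and a smallest adjusted p of 0.211. Without the 3 wt tumours 0 passed as well, with 3494 at an unadjusted p under 0.05. In both fits all 3833 genes called above kept their direction. Both fits reuse tumours that chose these genes, so a kept direction was close to given and is no separate support. The median log2 fold changes were 0.71 for the higher genes in each, and -0.49 and -0.54 for the lower genes. When the score entered as a number with genotype over all 15 tumours, 2285 genes passed, among them 1091 of the higher and 1010 of the lower genes. This last fit is called the gradient with genotype below, and it was added after the data had been seen. Without hom 6 1837 genes passed, without wt 4 2099, without hom 1 2389, and without wt 4, hom 6 and hom 3 together 426.

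**Figure D3:**
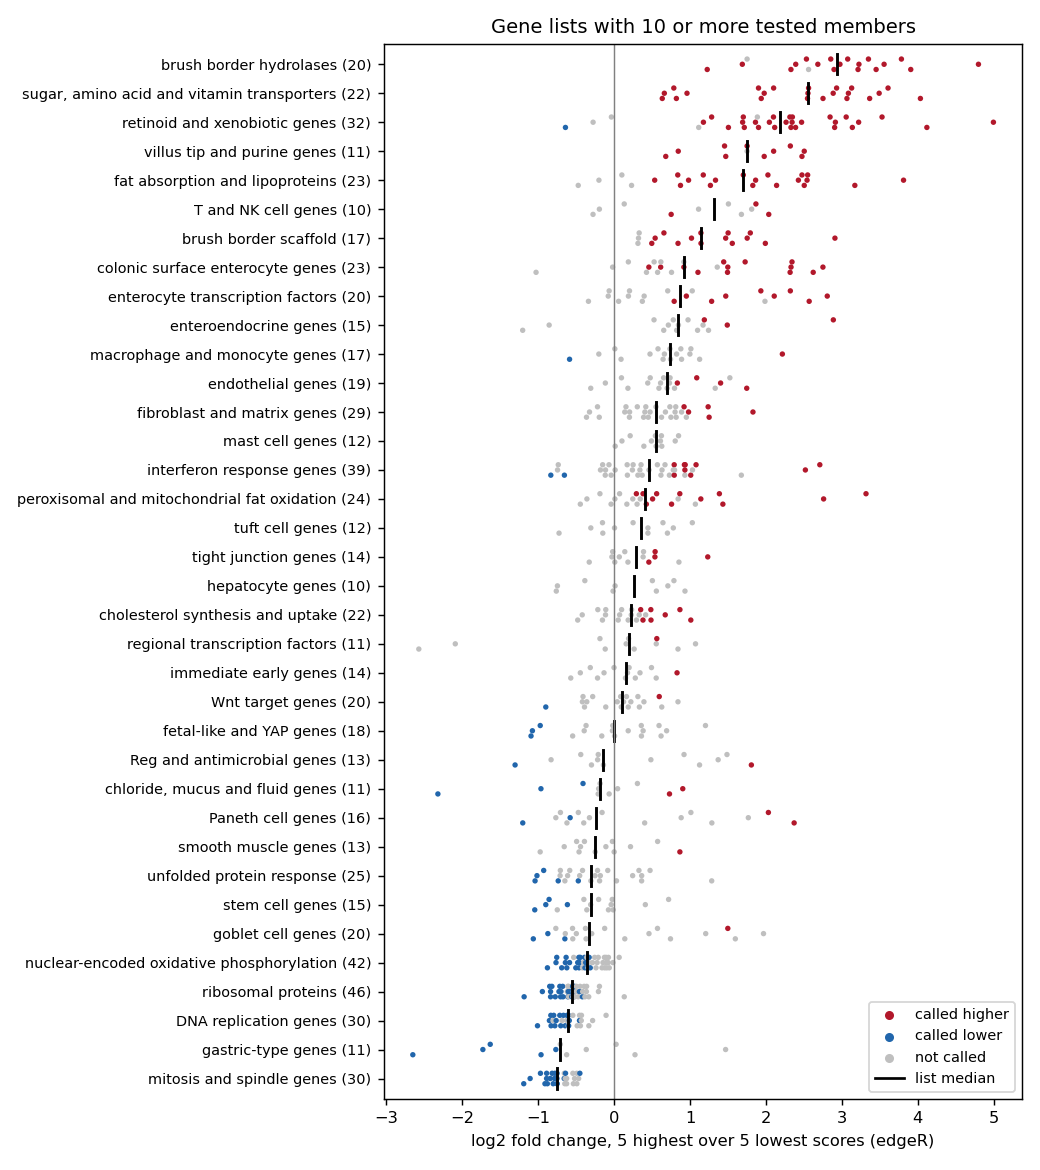
Log2 fold change of high-score against low-score tumours (horizontal axis) for the tested members of gene groups (rows), with 1 dot per gene, red where called higher, blue where called lower and grey where not called, and a bar at the median of each group of 10 or more tested members. Absorptive groups lie to the right, led by brush border hydrolases with a median of 2.94, and mitosis genes lie to the left with a median of -0.75.

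Genes of fat absorption and lipoprotein assembly were higher in high-score tumours. Of 23 tested members other than score genes, 19 rose (82.6%, against 14.0% of all genes) and 0 fell. The median log2 fold change was 1.70 (1.28 with genotype added), and 18 passed in the gradient with genotype. The summed RPKM of the group was 1725 to 2953 in high-score and 787 to 1176 in low-score tumours. Mttp, the protein that loads lipid onto apolipoprotein B, read 176, 133, 117, 90.02 and 71.7 RPKM in high-score tumours, against 24.1, 18.2, 8.50, 12.6 and 2.60 RPKM in low-score tumours. All high-score values were above all low-score values, which gave 3.17 ± 0.51 as log2 fold change (SE, adjusted p = 0.00926 by edgeR). Apob, the structural protein of chylomicrons, read 212, 138, 211, 184 and 97.3 RPKM, against 35.2, 38.4, 20.96, 53.6 and 10.3 RPKM, also without overlap (2.43 ± 0.40, adjusted p = 0.00926 by edgeR).

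Enzymes that activate and re-esterify fatty acids were among the members that rose. Slc27a4, a fatty acid transport protein with acyl-CoA synthetase activity, changed by 2.03 ± 0.28 on the log2 scale, Acsl5, a long-chain acyl-CoA synthetase, by 1.27 ± 0.18 and Mogat2, which makes diacylglycerol from monoacylglycerol, by 1.18 ± 0.15 (SE, edgeR adjusted p = 0.00926 each). Mogat2 read 105, 81.2, 120.1, 81.4 and 87.3 RPKM in high-score tumours, against 48.5, 43.1, 50.6, 37.4 and 32.8 RPKM in low-score tumours, narrow ranges that did not meet. Fabp1, the liver-type fatty acid binding protein, read 516, 739, 62.1, 109 and 174 RPKM, against 49.4, 42.8, 12.99, 5.73 and 3.86 RPKM. The classes did not overlap, but het 3 was close to the low-score tumours hom 2 and het 6, and hom 6 and hom 3 led, as in Apoa4 (3.81 ± 0.89, edgeR adjusted p = 0.0147).

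Brush border hydrolases showed the steepest group difference. Of 20 tested members other than Sis, 18 rose (90%, against 14.0% of all genes) and 0 fell. The median log2 fold change was 2.94 (2.35 with genotype added), and 19 passed in the gradient with genotype. Their summed RPKM was 1465 to 5011 in high-score and 123 to 687 in low-score tumours. Ace, a dipeptidyl carboxypeptidase, read 92.3, 55.4, 109, 33.6 and 27.3 RPKM in high-score tumours, against 13.4, 11.1, 6.41, 4.44 and 2.72 RPKM in low-score tumours (3.08 ± 0.52, SE, edgeR adjusted p = 0.00926). Mme, the endopeptidase neprilysin, read 28.1, 13.3, 20.04, 7.40 and 4.26 RPKM, against 1.66, 1.89, 0.967, 0.626 and 0.206 RPKM (3.78 ± 0.64, adjusted p = 0.00926 by edgeR). Neither gene overlapped between the classes, and in both wt 4 was lowest. Alpi, the intestinal alkaline phosphatase, changed by 2.68 ± 0.55 (edgeR adjusted p = 0.0108). Cndp2, which stands in this list although it encodes a cytosolic dipeptidase, changed by 1.69 ± 0.26 (edgeR adjusted p = 0.00926).

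Among the largest differences, named after their values were seen, was Enpp7, the alkaline sphingomyelinase that digests milk and membrane sphingomyelin. It read 277, 68.1, 416, 76.3 and 46.0 RPKM in high-score tumours, against 7.07, 16.4, 8.26, 0.0411 and 0.160 RPKM in low-score tumours (4.80 ± 1.12, edgeR adjusted p = 0.0146). Lct, the lactase gene, did not pass: it read 7.07, 3.56, 7.39, 4.12 and 1.39 RPKM in high-score tumours, against 0.265, 3.18, 0.390, 0.0548 and 0.118 RPKM (2.56 ± 0.93, edgeR adjusted p = 0.0612). Het 6 overlapped the high-score range of Lct and was the sole low-score tumour to do so. The middle-score tumours stayed at 0.0491 to 0.575 RPKM for Lct, below all high-score tumours.

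The scaffold of the microvilli moved with smaller folds. Of 17 members 14 rose (82.4%, against 14.0% of all genes) and 0 fell. The median log2 fold change was 1.14, and 12 passed in the gradient with genotype. Vil1, the actin bundler villin, read 429.6, 333, 554, 400.2 and 316 RPKM in high-score tumours, against 192, 246, 142, 260.2 and 173 RPKM in low-score tumours (1.02 ± 0.20, SE, edgeR adjusted p = 0.00953). The classes did not overlap, and low-score tumours kept a summed scaffold level of 852 to 1378 RPKM against 1792 to 3215 RPKM in high-score tumours. Slc9a3r1, a scaffold of transporters under the apical membrane, changed by 1.47 ± 0.23, Pls1, an actin bundler, by 1.56 ± 0.24, and Cdhr5, a cadherin that links neighbouring microvilli, by 1.502 ± 0.25 (edgeR adjusted p = 0.00926 each).

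All 22 tested transporters for sugars, amino acids, peptides and vitamins rose, against 14.0% of all genes. Their median log2 fold change was 2.56 (1.93 with genotype added), and 19 of 22 passed in the gradient with genotype. Slc15a1, the peptide transporter PEPT1, read 67.3, 30.2, 109, 38.0 and 24.2 RPKM in high-score tumours, against 8.0, 6.08, 4.06, 3.41 and 0.631 RPKM in low-score tumours (3.61 ± 0.62, SE, edgeR adjusted p = 0.00926). Slc5a1, the sodium-glucose cotransporter, read 125, 73.3, 159, 52.2 and 47.9 RPKM, against 30.2, 20.3, 9.59, 11.1 and 7.43 RPKM (2.55 ± 0.47, edgeR adjusted p = 0.00953). Both genes put het 3 highest and wt 4 lowest. Slc7a8, a basolateral exchanger of neutral amino acids, read 13.6, 8.45, 12.8, 6.01 and 9.79 RPKM, against 3.12, 2.66, 3.13, 3.28 and 1.47 RPKM (1.90 ± 0.26, edgeR adjusted p = 0.00926).

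Bile acid genes of the ileum were higher in part. Of 6 tested members 3 rose, a larger share than the 14.0% of all genes, and 2 passed in the gradient with genotype. The 3 are Slc10a2, which imports bile acids, and Slc51a and Slc51b, the 2 chains of the basolateral exporter. Slc10a2 read 53.2, 12.7, 73.3, 56.3 and 19.4 RPKM in high-score tumours, against 5.52, 3.85, 5.20, 12.4 and 2.91 RPKM in low-score tumours, nearly touching at hom 3 and wt 6 (2.86 ± 0.54, SE, edgeR adjusted p = 0.00984). Slc51b changed by 2.31 ± 0.60 (edgeR adjusted p = 0.0207) and Slc51a by 2.38 ± 0.79 (edgeR adjusted p = 0.0476). Fabp6 read 2258, 690.0, 3262, 2284 and 1733 RPKM, against 1807, 170.2, 58.0, 784 and 22.1 RPKM, and did not pass (1.86 ± 0.98, edgeR adjusted p = 0.172). The low-score tumours hom 2 and wt 6 lay within the high-score range of Fabp6.

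Regional transcription factors gave few calls, while some genes of duodenal iron and calcium uptake rose. Gata4 read 12.6, 13.9, 10.5, 6.45 and 10.1 RPKM in high-score tumours, against 4.84, 11.5, 8.37, 0.0830 and 0.882 RPKM in low-score tumours, with overlap (1.07 ± 0.79, edgeR adjusted p = 0.320). Cdx2, an intestinal homeobox factor, gave 0.40 ± 0.17 (edgeR adjusted p = 0.0943). Of 11 tested regional transcription factors 1 rose (9.09%, against 14.0% of all genes), Osr2 at 0.56 ± 0.18 (edgeR adjusted p = 0.0414), and 0 fell. Of 8 tested genes of duodenal iron and calcium uptake 3 rose, a larger share than the 14.0% of all genes, and 1 passed in the gradient with genotype. The 3 are Vdr, the vitamin D receptor, at 1.93 ± 0.46 (edgeR adjusted p = 0.0154), Heph, the basolateral ferroxidase, at 1.06 ± 0.24 (edgeR adjusted p = 0.0115) and Slc11a2, the iron importer, at 0.38 ± 0.11 (edgeR adjusted p = 0.0253).

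Genes listed for the mature colonic surface and for the villus tip were higher too. They are not limited to colon: het 4, labelled small intestine, read 968 RPKM for Krt20. Car1 and Aqp8, 2 other colon markers, had medians of 0.0776 and 0.293 RPKM in high-score tumours, against 0.137 and 0.339 RPKM in low-score tumours. Car4, a further one, had medians of 29.5 and 6.35 RPKM and was called higher. Of 23 tested colonic surface genes 13 rose (56.5%, against 14.0% of all genes) and 0 fell. The median log2 fold change was 0.92 (0.93 with genotype added), and 6 passed in the gradient with genotype. Krt20, a keratin of surface cells, read 979, 937, 972, 967 and 623 RPKM in high-score tumours, against 295, 393, 187, 536 and 249 RPKM in low-score tumours (1.44 ± 0.26, SE, edgeR adjusted p = 0.00926). Slc26a3, the chloride-bicarbonate exchanger, read 27.6, 11.7, 16.2, 12.9 and 11.7 RPKM, against 7.37, 2.14, 0.638, 1.74 and 0.126 RPKM (2.75 ± 0.74, edgeR adjusted p = 0.0230). Neither gene overlapped between the classes. Guca2a, which encodes guanylin, changed by 1.498 ± 0.43 (edgeR adjusted p = 0.0285), Hpgd, which breaks down prostaglandins, by 2.32 ± 0.48 (edgeR adjusted p = 0.0108) and Slc9a2, a sodium-proton exchanger, by 1.49 ± 0.27 (edgeR adjusted p = 0.00930).

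Of 11 villus tip and purine genes 10 rose (90.9%, against 14.0% of all genes) and 0 fell, with a median of 1.75. This count is not separate from those of other groups. Klf4 and Creb3l3 are also counted among the enterocyte transcription factors, Npc1l1 and Apoc3 in fat absorption and Slc28a2 among the transporters. Klf4, a factor of cells that have left the cycle, read 60.9, 65.1, 62.7, 62.5 and 38.8 RPKM in high-score tumours, against 25.1, 22.9, 21.6, 25.4 and 10.6 RPKM in low-score tumours (1.47 ± 0.22, edgeR adjusted p = 0.00926). Hom 4 and wt 4 each stood below the rest of their class. Xdh, xanthine dehydrogenase, changed by 1.46 ± 0.30 (edgeR adjusted p = 0.0108). Ada, adenosine deaminase, changed by 1.75 ± 0.59 (edgeR adjusted p = 0.0490) with overlap, since het 6 reached 37.5 RPKM against 13.6 RPKM in hom 4.

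**Figure D4:**
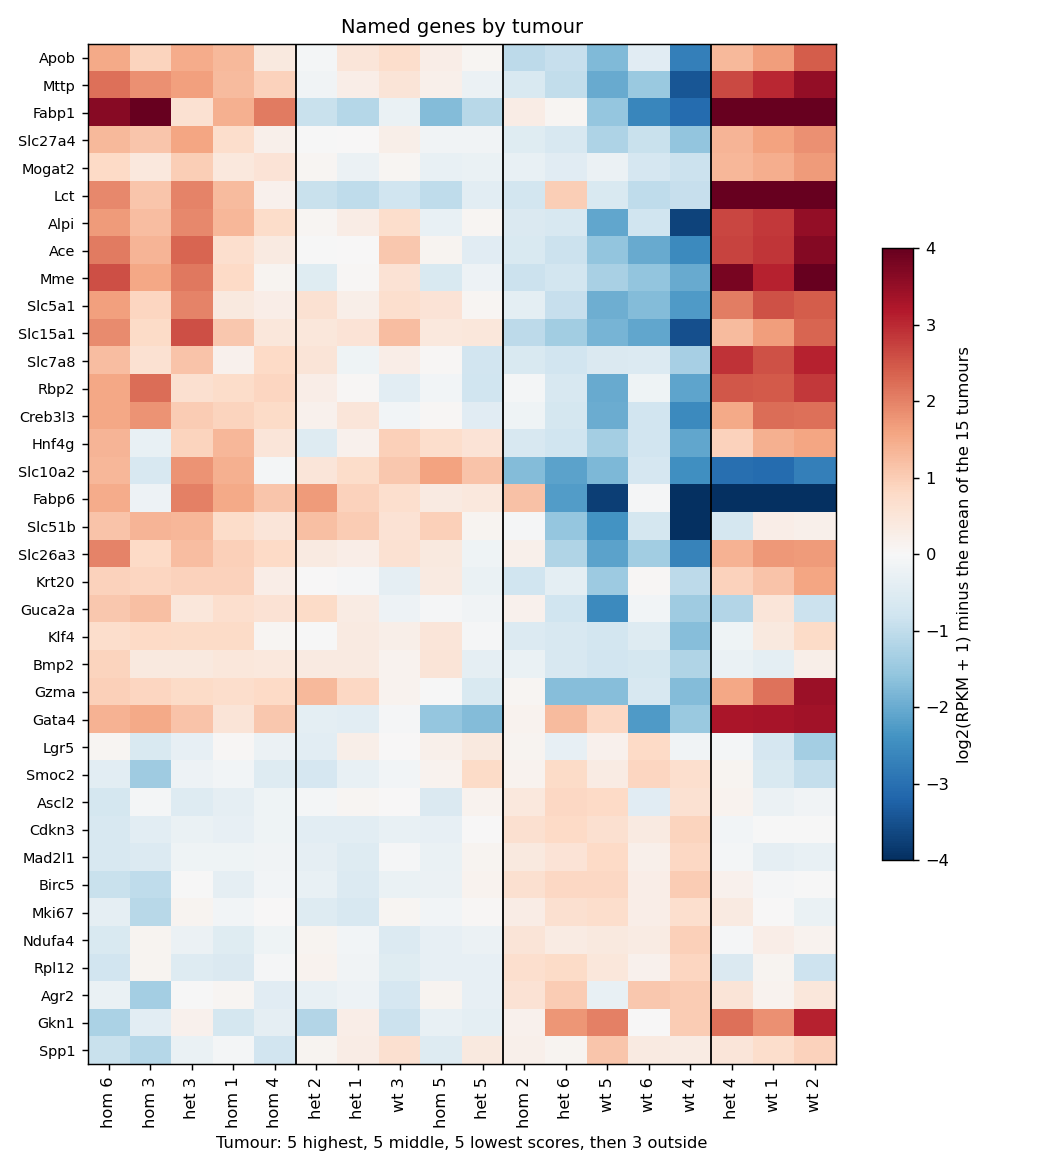
Heat map of named genes (rows) by tumour (columns, from left high-score, middle-score, low-score and the 3 outside the ranking), coloured by log2(RPKM + 1) minus the mean of the gene over the 15 ranked tumours, red where above that mean and blue where below. Most upper rows, absorptive genes among them, are higher in the high-score than in the low-score tumours, the lower rows from Lgr5 down are mostly lower in the high-score tumours, and wt 4 is the lowest column for Mttp at 2.60 RPKM.

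Among 20 transcription factors of enterocytes, 9 rose (45%, against 14.0% of all genes) and 0 fell. The median log2 fold change was 0.87 (0.51 with genotype added), and 10 passed in the gradient with genotype. Hnf4g, a nuclear receptor that acts with Hnf4a on brush border genes, read 34.8, 10.3, 24.8, 34.1 and 18.6 RPKM in high-score tumours, against 7.96, 6.97, 4.41, 7.18 and 2.25 RPKM in low-score tumours (2.11 ± 0.39, SE, edgeR adjusted p = 0.00953). Hnf4a read 175, 122, 167, 167 and 115 RPKM, against 81.2, 122, 66.3, 99.0 and 67.4 RPKM, a smaller shift with overlap at het 6 (0.79 ± 0.19, edgeR adjusted p = 0.0147). Creb3l3, a membrane-bound factor of lipid genes, changed by 2.32 ± 0.44 (edgeR adjusted p = 0.00995).

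Retinoid and xenobiotic genes followed the same direction. Of 32 tested members 27 rose (84.4%, against 14.0% of all genes) and 1 fell. The median was 2.19 (1.62 with genotype added), and 25 passed in the gradient with genotype. Rbp2, the retinol binding protein of enterocytes, changed by 2.12 ± 0.48 on the log2 scale (SE, edgeR adjusted p = 0.0133) and Cyp2d26, a cytochrome P450, by 2.31 ± 0.36 (edgeR adjusted p = 0.00926). Ugt1a1, which conjugates bilirubin, read 9.78, 4.76, 4.10, 4.87 and 3.66 RPKM in high-score tumours, against 0.877, 0.283, 0.0846, 0.262 and 0.0678 RPKM in low-score tumours (4.12 ± 0.59, edgeR adjusted p = 0.00926). It shares exons with other Ugt1a genes, so its count is uncertain. The largest called fold of all, named after its value was seen, was in Cyp3a11, a P450 of drug and bile acid metabolism, at 4.99 ± 1.04 (edgeR adjusted p = 0.0109). Cyp3a11 has close paralogs that could share reads. The member that fell was Gsta4, a glutathione transferase, at -0.64 ± 0.19 (edgeR adjusted p = 0.0307).

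The genes of smallest p on the higher side were not all absorptive genes. They were Unc5b, Mogat2, Dab1, Fam84a, Igsf9, Slc7a8, Mfsd7c, Slc27a4, Slco2a1, Aoc1, Pcyt1a and Bmp2, each with an edgeR adjusted p of 0.00926 and without overlap. Unc5b, a netrin receptor, read 11.2, 10.4, 10.8, 10.8 and 7.75 RPKM in high-score tumours, against 5.17, 4.08, 3.85, 3.75 and 3.04 RPKM in low-score tumours, and its log2 fold change of 1.37 ± 0.15 (SE) rests on narrow classes. Bmp2, a ligand made by differentiated epithelium, read 17.8, 12.2, 12.3, 12.8 and 12.7 RPKM, against 7.39, 5.42, 4.90, 5.21 and 3.38 RPKM (1.38 ± 0.19). In Bmp2 hom 6 stood above its class and the middle-score tumours spread from 6.90 to 13.3 RPKM.

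Slco2a1, the prostaglandin transporter, changed by 2.22 ± 0.30 and Aoc1, the diamine oxidase that degrades histamine, by 1.70 ± 0.24. Pcyt1a, the regulated enzyme of phosphatidylcholine synthesis, changed by 1.31 ± 0.18, Mfsd7c, a transporter of the major facilitator family, by 2.996 ± 0.41 and Dab1, an adaptor of reelin signalling, by 1.29 ± 0.17. Fam84a changed by 1.08 ± 0.14 and Igsf9 by 0.98 ± 0.13.

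Cell division genes were lower in high-score tumours. Of 30 mitosis and spindle genes 19 fell and 0 rose, against 13.5% of all genes, with a median log2 fold change of -0.75 (-0.58 with genotype added), and 9 passed in the gradient with genotype. Of 30 DNA replication genes 16 fell and 0 rose, with a median of -0.61 (-0.42 with genotype added), and 12 passed in that fit. The summed RPKM of the mitosis genes was 389 to 805 in high-score and 842 to 1329 in low-score tumours. Mad2l1, a spindle checkpoint protein, read 36.0, 39.3, 50.9, 50.5 and 51.8 RPKM in high-score tumours, against 75.1, 84.6, 99.3, 66.1 and 101 RPKM in low-score tumours (-0.89 ± 0.15, SE, edgeR adjusted p = 0.00926). Birc5, the survivin of the chromosomal passenger complex, read 10.6, 9.46, 20.3, 15.6 and 18.8 RPKM, against 32.2, 36.8, 36.5, 24.7 and 41.7 RPKM (-1.19 ± 0.22, edgeR adjusted p = 0.00952). No low-score tumour fell into the high-score range of either gene.

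Mki67, the proliferation antigen, read 19.4, 11.1, 26.9, 22.9 and 25.4 RPKM in high-score tumours, against 31.1, 40.02, 41.6, 30.0 and 40.6 RPKM in low-score tumours (-0.78 ± 0.21, edgeR adjusted p = 0.0213). The high-score tumour hom 3 was lowest in Mki67 and had the second-highest score. Cenpa, the centromeric histone, changed by -1.10 ± 0.20 (edgeR adjusted p = 0.00926). For replication, Dut, which keeps uracil out of DNA, changed by -1.01 ± 0.20 (edgeR adjusted p = 0.00973), Tk1, thymidine kinase, by -0.83 ± 0.18 (edgeR adjusted p = 0.0108) and Rfc4, a clamp loader subunit, by -0.78 ± 0.17 (edgeR adjusted p = 0.0109).

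The lower genes of smallest p were Cdkn3, Tomm5, Dpy30, Cenpw, Ly6g6e, Timm8a1, Akr1b10, Exosc8, Timm9, Psrc1, Tsr2 and Mad2l1, each with an edgeR adjusted p of 0.00926 and without overlap. Cdkn3, a phosphatase of cyclin-dependent kinases, read 10.2, 12.2, 13.6, 12.9 and 14.5 RPKM in high-score tumours, against 26.3, 29.5, 26.4, 21.6 and 31.6 RPKM in low-score tumours (-1.08 ± 0.15). The middle-score tumours read 11.99 to 16.6 RPKM and were close to the high-score class in Cdkn3. Cenpw, a kinetochore protein, changed by -1.10 ± 0.17 and Psrc1, a spindle protein, by -1.30 ± 0.21. Tomm5 at -0.98 ± 0.13, Timm9 at -1.04 ± 0.17 and Timm8a1 at -0.68 ± 0.11 belong to the protein import machinery of mitochondria. Exosc8, of the RNA exosome, changed by -0.99 ± 0.16, Tsr2, of ribosome assembly, by -0.72 ± 0.12 and Dpy30, of histone H3 methylation, by -0.78 ± 0.12. Akr1b10, an aldo-keto reductase, changed by -1.11 ± 0.18 and Ly6g6e by -1.001 ± 0.16.

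**Figure D5:**
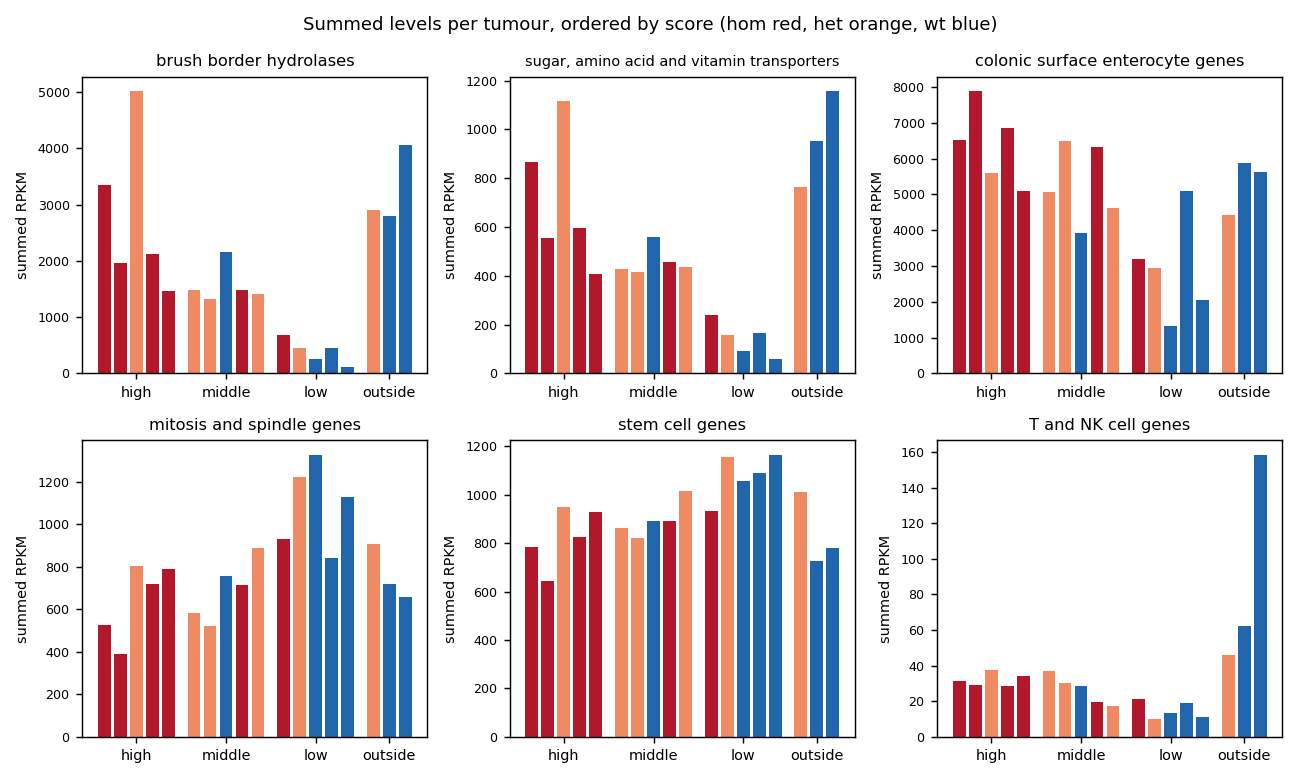
Summed RPKM of gene groups (vertical axes, 1 panel per group) in each tumour, grouped as high-score, middle-score, low-score and outside the ranking (horizontal axis), with 1 bar per tumour coloured by genotype. Brush border hydrolases are at 1465 to 5011 RPKM in high-score and 123 to 687 RPKM in low-score tumours, while mitosis genes are at 389 to 805 RPKM in high-score and 842 to 1329 RPKM in low-score tumours.

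Stem cell genes were lower in part. Of 15 members 4 fell (26.7%, against 13.5% of all genes) and 0 rose. The 4 were Rnf32, Smoc2, Cdca7 and Ascl2. Negative log2 fold changes were found in 13 of the 15, with a median of -0.31 (-0.20 with genotype added), and 2 passed in the gradient with genotype. Smoc2, a matrix protein of crypt base cells, read 46.3, 22.6, 53.5, 57.5 and 43.3 RPKM in high-score tumours, against 68.8, 105, 78.3, 114 and 98.5 RPKM in low-score tumours (-1.04 ± 0.23, SE, edgeR adjusted p = 0.0114). Ascl2, the transcription factor of stem cells, changed by -0.90 ± 0.23 (edgeR adjusted p = 0.0174), Rnf32 by -0.85 ± 0.17 (edgeR adjusted p = 0.00973) and Cdca7, a MYC-responsive gene, by -0.61 ± 0.14 (edgeR adjusted p = 0.0134). Lgr5, the receptor that defines crypt base stem cells, read 39.8, 24.4, 30.2, 39.0 and 32.2 RPKM, against 41.0, 30.2, 42.3, 66.8 and 34.4 RPKM, ranges that overlapped (-0.36 ± 0.21, edgeR adjusted p = 0.211).

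Of 20 tested Wnt target genes 1 rose (Znrf3) and 1 fell (Ascl2), with a median of 0.11, both shares below those of all genes. Axin2, the feedback scaffold of the pathway, read 76.8, 104, 65.4, 71.4 and 79.5 RPKM in high-score tumours, against 79.8, 47.9, 77.8, 47.5 and 51.9 RPKM in low-score tumours (0.39 ± 0.18, edgeR adjusted p = 0.121). Znrf3, the ligase that clears Wnt receptors, changed by 0.60 ± 0.16 (edgeR adjusted p = 0.0192). Of 18 fetal-like and YAP genes 3 fell (16.7%, near the 13.5% of all genes) and 0 rose: Spp1, osteopontin, at -1.07 ± 0.25 (edgeR adjusted p = 0.0134), Anxa3 at -0.97 ± 0.24 (edgeR adjusted p = 0.0156) and Ly6a at -1.09 ± 0.31 (edgeR adjusted p = 0.0246). The median of this group was 0.00, that of all genes.

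Goblet and Paneth cell genes were called at shares near or below those of all genes, which were 14.0% higher and 13.5% lower. Of 20 goblet cell genes 1 rose, Guca2a, which surface enterocytes also make, and 3 fell: Galnt12, Agr2 and Creb3l1. Agr2, a disulfide isomerase for mucins, read 1122, 533, 1346, 1436 and 995 RPKM in high-score tumours, against 2016, 2734, 1112, 2857 and 2738 RPKM in low-score tumours, with overlap at wt 5 (-1.06 ± 0.30, SE, edgeR adjusted p = 0.0243). Galnt12, a mucin glycosyltransferase, changed by -0.65 ± 0.14 (edgeR adjusted p = 0.0109) and Creb3l1 by -0.87 ± 0.25 (edgeR adjusted p = 0.0265). Muc2, the main gel-forming mucin, gave -0.29 ± 0.51 (edgeR adjusted p = 0.686), and wt 5 read 30.4 RPKM against 171 to 310.1 RPKM in the other low-score tumours.

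Of 16 tested Paneth cell genes 2 rose and 2 fell (12.5% each), and 0 passed in the gradient with genotype. Defa21, which rose, belongs to the alpha-defensin family, whose near-identical copies could share reads. Lyz1, Paneth cell lysozyme, gave -0.62 ± 0.29 (edgeR adjusted p = 0.125). Of 12 tested tuft cell genes 0 rose and 0 fell by edgeR. Of 15 tested enteroendocrine genes 3 rose (20%, against 14.0% of all genes) and 0 fell. The summed RPKM of the group did not follow these 3 genes: it was 314.8 to 415.2 in high-score tumours, against 501.8, 670.1, 140.1, 654.9 and 523.5 in low-score tumours, of which all but wt 5 were above the high-score range. Gip, a hormone of the upper gut, read 17.1, 15.03, 9.33, 6.58 and 10.8 RPKM in high-score tumours, against 3.59, 3.34, 0.505, 0.521 and 0 RPKM in low-score tumours (2.89 ± 0.72, edgeR adjusted p = 0.0169). Nts, neurotensin, changed by 1.49 ± 0.44 (edgeR adjusted p = 0.0304) and Chga, a granule protein, by 1.19 ± 0.29 (edgeR adjusted p = 0.0159). In these 3 hormone and granule genes all high-score values lay above all low-score values.

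Of 11 tested gastric-type genes 5 fell (45.5%, against 13.5% of all genes) and 0 rose. The median was -0.71 (-0.66 with genotype added), and 1 passed in the gradient with genotype. Gkn1, a gastrokine, read 5.90, 11.4, 17.7, 9.04 and 11.9 RPKM in high-score tumours, against 17.6, 55.6, 65.7, 15.8 and 32.1 RPKM in low-score tumours, overlapping at het 3 (-1.73 ± 0.42, edgeR adjusted p = 0.0166). Tff1, a trefoil peptide of gastric surface cells, changed by -1.63 ± 0.44 (edgeR adjusted p = 0.0213). Nox1, an oxidase of colonic epithelium, fell by 2.32 on the log2 scale (edgeR adjusted p = 0.0304), and Kcne3, a subunit of basolateral potassium channels, changed by -0.96 ± 0.18 (edgeR adjusted p = 0.00953).

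Genes of protein synthesis and respiration were lower in high-score tumours, by small steps. Of 46 ribosomal protein genes 24 fell (52.2%, against 13.5% of all genes) and 0 rose. The median log2 fold change was -0.55 (-0.61 with genotype added), but 4 passed in the gradient with genotype. Rpl12 read 17.7, 33.1, 21.2, 20.4 and 29.5 RPKM in high-score tumours, against 49.6, 53.2, 42.3, 34.9 and 56.1 RPKM in low-score tumours (-0.94 ± 0.19, SE, edgeR adjusted p = 0.0104). Ribosomal protein genes have many processed copies in the genome, so their counts are uncertain. Of 42 nuclear genes of oxidative phosphorylation 19 fell (45.2%) and 0 rose. The median was -0.35 with and without genotype, and 10 passed in the gradient with genotype. Ndufa4, a respiratory chain subunit, read 345, 566, 449.8, 376 and 461 RPKM, against 743, 655, 689.9, 652 and 1015 RPKM (-0.76 ± 0.16, edgeR adjusted p = 0.0108). In both genes all high-score values were below all low-score values, but this held for 2 of the 46 ribosomal protein genes, and the summed RPKM of that group overlapped, with 12910 to 24020 in high-score and 18700 to 30170 in low-score tumours. Atp5g1, of the ATP synthase, changed by -0.75 ± 0.16 (edgeR adjusted p = 0.0108).

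Fat oxidation moved the other way. Of 24 tested peroxisomal and mitochondrial fat oxidation genes 12 rose (50%, against 14.0% of all genes) and 0 fell. Their median was 0.40, and 11 passed in the gradient with genotype. Pex11a, a peroxisome membrane protein, changed by 1.43 ± 0.27 (edgeR adjusted p = 0.00953). Of 22 cholesterol genes 7 rose (31.8%) and 0 fell (median 0.23), and 5 passed in the gradient with genotype. Among the 7 was Hmgcs1 at 0.67 ± 0.16 (edgeR adjusted p = 0.0144). The summed RPKM of the cholesterol genes overlapped, with 1197 to 1471 in high-score and 1099 to 1226 in low-score tumours. Of 25 unfolded protein response genes 5 fell (against 13.5% of all genes) and 0 rose, and 2 passed in the gradient with genotype. The median of -0.30 was 0.06 with genotype added. Manf, a secreted stress factor of the endoplasmic reticulum, read 72.5, 55.2, 116, 76.8 and 77.8 RPKM in high-score tumours, against 93.0, 142, 134, 149 and 244 RPKM in low-score tumours (-0.93 ± 0.25, edgeR adjusted p = 0.0214).

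Markers of other cell types were examined beside these groups. Of 10 tested T and NK cell genes 3 rose (30%, against 14.0% of all genes) and 0 fell (median 1.31), and 10 further members were not tested. The summed RPKM of the group, with the members not tested, was 28.5 to 37.8 in high-score and 10.01 to 21.4 in low-score tumours. Gzma, a protease of cytotoxic lymphocytes, read 15.4, 14.3, 13.3, 12.5 and 13.4 RPKM in high-score tumours, against 7.88, 1.56, 1.56, 4.43 and 1.497 RPKM in low-score tumours (2.04 ± 0.44, SE, edgeR adjusted p = 0.0109). Itgae, the integrin chain of intraepithelial lymphocytes, changed by 0.75 ± 0.20 (edgeR adjusted p = 0.0212) and Gzmb by 1.87 ± 0.46 (edgeR adjusted p = 0.0157). The pan-leukocyte gene Ptprc stayed under 2 RPKM in every tumour and changed by 1.27 ± 0.37 (edgeR adjusted p = 0.0280). Of 39 tested interferon response genes 9 rose (23.1%, against 14.0% of all genes) and 2 fell (5.13%, against 13.5%). Their median was 0.46, but 1 passed in the gradient with genotype.

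Stromal genes were called at shares not far from that of all genes, 14.0% higher. Of 29 tested fibroblast and matrix genes 5 rose (17.2%) and 0 fell (median 0.55, 0.25 with genotype added), and 0 passed in the gradient with genotype, with a summed RPKM of 249 to 489 in high-score and 239 to 379 in low-score tumours. Pdgfra, a receptor of fibroblasts below the epithelium, changed by 1.24 ± 0.39 (edgeR adjusted p = 0.0386), while the collagen gene Col3a1 gave 0.63 ± 0.30 (edgeR adjusted p = 0.131). Of 19 endothelial genes 4 rose (21.1%) and 0 fell, and 1 passed in the gradient with genotype. Their summed RPKM overlapped, with 84.2 to 154 in high-score and 60.0 to 89.1 in low-score tumours. Much of this sum was Prox1, at 29.6 to 47.7 RPKM in high-score and 15.4 to 34.3 RPKM in low-score tumours. In het 3 Prox1 made 43.3 of the summed 84.2 RPKM. Lyve1 and Vwf, also called, read at most 6.03 and 3.29 RPKM in high-score tumours, and each of these genes overlapped between the classes. Of 17 tested macrophage genes 1 rose and 1 fell, Cd14, at -0.58 ± 0.16 (edgeR adjusted p = 0.0224). Of 13 tested smooth muscle genes 1 rose, Mylk, at 0.87 ± 0.16 (edgeR adjusted p = 0.00944), while 9 had a negative log2 fold change and the median was -0.25. Epcam, carried by all epithelial cells, gave -0.20 ± 0.13 (edgeR adjusted p = 0.255).

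Of 6 tested adipocyte genes 3 rose, a larger share than the 14.0% of all genes, and 0 fell. Their summed RPKM was 60.0 to 215 in high-score and 23.3 to 61.0 in low-score tumours. Among the 3 was Lipe, the hormone-sensitive lipase, at 1.39 ± 0.24 (edgeR adjusted p = 0.00926). Enterocytes also express fat-handling genes of this list. By edgeR 0 genes rose and 0 fell among 8 tested neutrophil, 7 B and plasma cell, 12 mast cell, 3 pancreatic acinar and 10 hepatocyte genes. Mast cell RNA differed between tumours within each class, with 25.3 to 1678 RPKM summed in high-score and 32.0 to 673 RPKM in low-score tumours, and the protease gene Mcpt1 gave 0.62 ± 1.08 (edgeR adjusted p = 0.686). Of the 17 acinar markers, 6 had no count in any of the 10 tumours. The liver transcript Alb gave 0.01 ± 0.38 (edgeR adjusted p = 0.981). The part of these other cell types in the differences above was not tested.

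The 5 middle-score tumours had no part in the comparison. In 1766 of the 1950 higher genes (90.6%) and 1468 of the 1883 lower genes (78.0%) their mean lay between the class means. Called genes were chosen for class means far apart, so these shares are not set against those of other genes. The median place of the middle-score mean was 71.9% of the way from the low-score to the high-score mean for the higher genes and 89.3% for the lower genes. The middle-score class is ranked by the same score, so these places are a description and no separate replicate.

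Within a genotype, most but not all groups kept the direction of their median, read without a test. Of 36 groups with 10 or more tested members, 32 kept it within hom, 31 within het and 27 in both. The 4 high-score hom tumours against hom 2 gave a median log2 difference of 1.64 for brush border hydrolases and -0.61 for mitosis genes, with 20 of 20 higher and 0 of 30 higher. Het 3 against het 6 gave 3.28 and -0.56, again with 20 of 20 and 0 of 30 higher. Endothelial genes turned in the het pair, at -0.23 with 6 of 19 higher, as did fibroblast and matrix genes at -0.06 with 12 of 29 higher, and unfolded protein response genes turned in hom at 0.02 with 13 of 25 higher. The other 6 groups that turned in a genotype were Paneth cell, Reg and antimicrobial and immediate early genes in het, and fetal-like, hepatocyte, and chloride, mucus and fluid genes in hom. These are differences between few libraries, and wt had no high-score tumour to compare. The tumours are the same that gave the group medians and were ranked by the score. A kept direction was therefore given in part and is no separate support.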

How the data were processed

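Tumours were resected at autopsy and total RNA was extracted, per the labels' protocols; the kit named there is for stranded total RNA, and the molecule label says polyA RNA. The authors deposited whole-number read counts for 24062 genes and RPKM values with TMM scaling in 18 libraries, with gene lengths. Per the submitters' processing notes, the reads went through Trimmomatic, TopHat and then featureCounts (Subread 1.4.5-p1) on mm10. Whether counting used strand is not given in the sources used here; genes overlapping on opposite strands are uncertain. Groups came from the genotype labels, and the titles number the mice, so tumours were taken as separate animals. No batch is named, and the lowest chi-square per degree of freedom between 2 libraries (20.3) showed no repeated library.

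The score, class and levels used the deposited RPKM with a pseudocount of 1. The deposited counts were tested gene by gene in R 4.3.3 with edgeR 4.0.16 (filterByExpr, TMM factors of 0.934 to 1.07, robust quasi-likelihood fit, 5 high-score against 5 low-score tumours), adjusted by Benjamini-Hochberg over 13903 genes with a threshold of 0.05. RPKM ± values are SD, and log2 fold changes carry the SE of the fit. Alternatives used DESeq2 1.42.0, limma 3.58.1 and other designs. Single values were compared by exact permutation or Fisher tests with scipy 1.17.1; the planned test of the score between genotypes is left out, because the score ranked the tumours. Tested on simulated counts of these libraries, the fit recovered 14.9%, 61.2% and 87.9% of genes changed 1.5-fold, 2-fold and 4-fold, with 5 false calls.

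The members, gene lists and motifs were chosen with earlier results of these data known. Named genes are up to 12 per direction of smallest p (leaving out predicted genes and those whose mean log2 CPM was under 0), genes of a fixed set, and, from each list, at most 3 called members each way; some of these genes are not reported here. Enpp7 and Cyp3a11 were added after their values were seen.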

Additional observations from a re-analysis of the deposited data

Results flagged for a closer look

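Values far from the rest of their group were looked for in 243 groups. Most groups were the log2(RPKM + 1) values of a gene within a class of 5 tumours. The others were the score and total counts within a class and the score within a genotype. Such a tumour was held by 24 groups (9.88%), where chance gives about 1 in 20. Genes share tumours, so these are not independent.

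In the high-score class hom 4 was low in Unc5b (3.13), Pcyt1a (4.13), Krt20 (9.28) and Klf4 (5.32) and high in Psrc1 (2.65). Hom 6 was high in Bmp2 (4.23), Ugt1a1 (3.43) and Pex11a (4.04). Het 3 was high in Slc51a (8.21), Gzmb (3.49) and Macrod2 (0.45), and it is the sole non-null tumour of its class. In the low-score class wt 4 was low in Apoa1 (5.81), Slc7a8 (1.30) and Klf4 (3.53) and high in Atp5g1 (7.18). Hom 2 was high in Xdh (4.53) and had no Macrod2 count (0), as the null genotype of that tumour implies. Het 6 was high in Lct (2.06) and Slc11a2 (3.47). Wt 5 was low in Muc2 (4.97) and Chga (1.29) and high in Spp1 (5.58) and Itgae (0.94), and wt 6 was low in Tk1 (4.53).

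The 3 tumours outside the ranking also carried the score genes, with scores of 10.84 in het 4, 11.46 in wt 1 and 11.47 in wt 2, against 3.56 to 11.26 in the 15 ranked tumours.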

How the results depend on the processing

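The 3833 calls were 1756 with a replicate block of the mouse number. Whether the mouse number marks a pairing cannot be settled from so few pairs. Deviations of the tumours with the same number correlated at 0.037, 0.245 and 0.306, and those with different numbers at -0.406 to 0.387. The labels name no shared litter. The calls were 1262 for the 7 highest against the 7 lowest tumours, 0 with genotype added, 0 without the wt tumours, 2285 with the score as a number and genotype, and 426 without wt 4, hom 6 and hom 3; the cause was not tested. Leaving out each tumour in turn gave 1837 to 4275. Of the 101 named genes called, 0 changed direction in 24 settings and 83 passed in the gradient with genotype. All settings reuse tumours that chose these genes, so kept directions were close to given.

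Genes that were not called reversed in some settings. Alb gave -0.86 with the replicate block, -0.0306 with the score as a number, -0.0699 for 7 against 7, and -0.198 to 0.337 when a tumour was left out. Rn45s gave 0.32 with the score as a number and 0.58 with genotype as well. Mcpt1 gave -2.365 with the replicate block and -0.922 to 1.07 when a tumour was left out.

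The score difference of het minus wt, 2.56 over the 15 tumours, was 2.48 without Sis, 2.67 without Fabp2, 2.49 without Apoa4 and 0.83 over 17 tumours. That of hom minus wt, 3.34 over the 15, was 3.19 without Sis, 3.48 without Fabp2 and 1.61 over 17. Leaving out each tumour gave 1.66 to 3.41 for het minus wt and 2.435 to 4.19 for hom minus wt. Classes of 5 tumours, unequal depth and uneven genotypes limit all of these values, and genes with few counts were filtered out.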

Other observations

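Tumours outside the ranking held absorptive RNA of another make. In het 4, wt 1 and wt 2, Fabp1 stood at 3424 to 5135 RPKM and Lct at 133 to 270 RPKM (269.9 in wt 2), against at most 739 and 7.39 RPKM in the 15 ranked tumours. Fabp6 stood at 3.39 to 4.51 RPKM there, below the lowest of the 15 at 22.1 RPKM. Their summed RPKM of brush border hydrolases was 2798 to 4060, within the high-score range, and that of mitosis genes was 657 to 906.

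Fluid and junction genes form small groups, so their called shares rest on few genes beside the 14.0% higher and 13.5% lower among all genes. Of 11 tested chloride, mucus and fluid genes 2 rose (18.2%, Muc13 and Clcn2) in high-score tumours. In the same group 3 fell (27.3%, Kcne3, Kcnq1 and Nox1). Of 14 tight junction genes 4 rose (28.6%, Ocln, Tjp1, Cldn15 and Cldn23) and 0 fell. In the gradient with genotype 3 fluid genes and 1 tight junction gene passed. The summed RPKM of fluid genes overlapped, with 544 to 858.5 in high-score and 603 to 772 in low-score tumours. That of tight junction genes overlapped as well, with 1883 to 2241 against 1635 to 2000. Of 14 tested immediate early genes 1 rose, Zfp36, an RNA-binding protein that shortens cytokine messages. Of 13 tested Reg and antimicrobial genes 1 rose, Nos2, and 1 fell, Saa3.

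Among the 239 genes called at least 4-fold higher, 178 matched 222 RefSeq promoter windows on GRCm38.p6. Of these windows 12.6% held GTTAAT, 22.5% CAAAGT, 7.21% CAATAAA and 13.5% AGATAA on either strand, against 4.82%, 12.2%, 2.58% and 6.87% of 13240 windows of all tested genes. The genes were chosen for their fold and the motifs with results known, base composition of the windows was not matched, and no test was made.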
